A study of Mus musculus with 2 samples.

Results

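DNase-hypersensitive sites were examined around 3 genes of osteoclast fusion and adhesion, Dcstamp, Ocstamp and Itgb3, in RAW264 cells. RAW264 is a mouse macrophage-like line, and RANKL, short for receptor activator of NF-kappaB ligand, turns it into osteoclasts, the cells that resorb bone. There were 2 libraries, 1 per condition, from cells at passages 3 to 7. The first came from undifferentiated cells kept without RANKL, and the second from cells cultured for 24 hours with GST-RANKL, a tagged form of the cytokine, at 234 ng/ml. DNase-seq reads out open chromatin, because DNase I cuts DNA more readily where it is not wrapped in nucleosomes, and a peak is a stretch where such cuts were called as concentrated. The members were all deposited peaks that overlapped 3 fixed windows of the mouse build mm9: 39.52 to 39.65 Mb of chromosome 15 for Dcstamp, 165.16 to 165.28 Mb of chromosome 2 for Ocstamp, and 104.41 to 104.59 Mb of chromosome 11 for Itgb3. They were 15 peaks of 29939 in both lists together, 8 of 13492 without RANKL and 7 of 16447 with RANKL. With 1 library per condition no value has a replicate error, no test was possible, and every difference describes these 2 libraries.

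Osteoclasts arise when mononuclear precursors of the macrophage lineage fuse into large cells with many nuclei, which then attach to bone and seal off the surface below them. DC-STAMP, the product of Dcstamp, and OC-STAMP, the product of Ocstamp, are membrane proteins with several transmembrane stretches, and precursors that lack either of them fuse poorly. Integrin beta 3, the product of Itgb3, pairs with the alpha v subunit to form the vitronectin receptor, through which the mature osteoclast holds to matrix proteins such as osteopontin. All 3 genes are known to be switched on by RANKL, with NFATc1 among the factors that act on them.

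The question was which open sites near these genes were called in each state. In the whole lists, 39.3% of peaks without RANKL and 34.3% of RANKL peaks coincided with no peak of the other list. The Dcstamp window held 3 peaks without RANKL and 1 with RANKL, and none of them coincided. The Ocstamp window held 2 peaks without RANKL and 1 with RANKL, which met at 1 site. The Itgb3 window held 3 peaks without RANKL and 5 with RANKL, and 4 of those 5 lay inside 2 of the 3 broad peaks. Each window therefore held a called site in each list.

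Peaks with 1 bp or more in common with the opposite list were classed as shared. Over the 3 windows, 5 of the 8 peaks without RANKL had no RANKL peak on them, while 39.3% of that whole list did not. Of the 7 RANKL peaks, 2 had no counterpart, against 34.3% of the whole RANKL list. The shared part was 37.5% of the 8 (95% Wilson interval 13.7 to 69.4%) and 71.4% of the 7 (interval 35.9 to 91.8%). Both intervals cover counting error only, and both include the share of their whole list, 60.7% and 65.7%. The RANKL interval treats peaks as independent, although 4 of the 5 shared ones are 2 pairs, each on 1 broad peak. With peaks closer than 1 kb merged, 3 of 5 RANKL sites were shared (60%). The read depth of the libraries is unknown, so a site with no peak may have been open but below the calling limit.

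**Figure D1:**
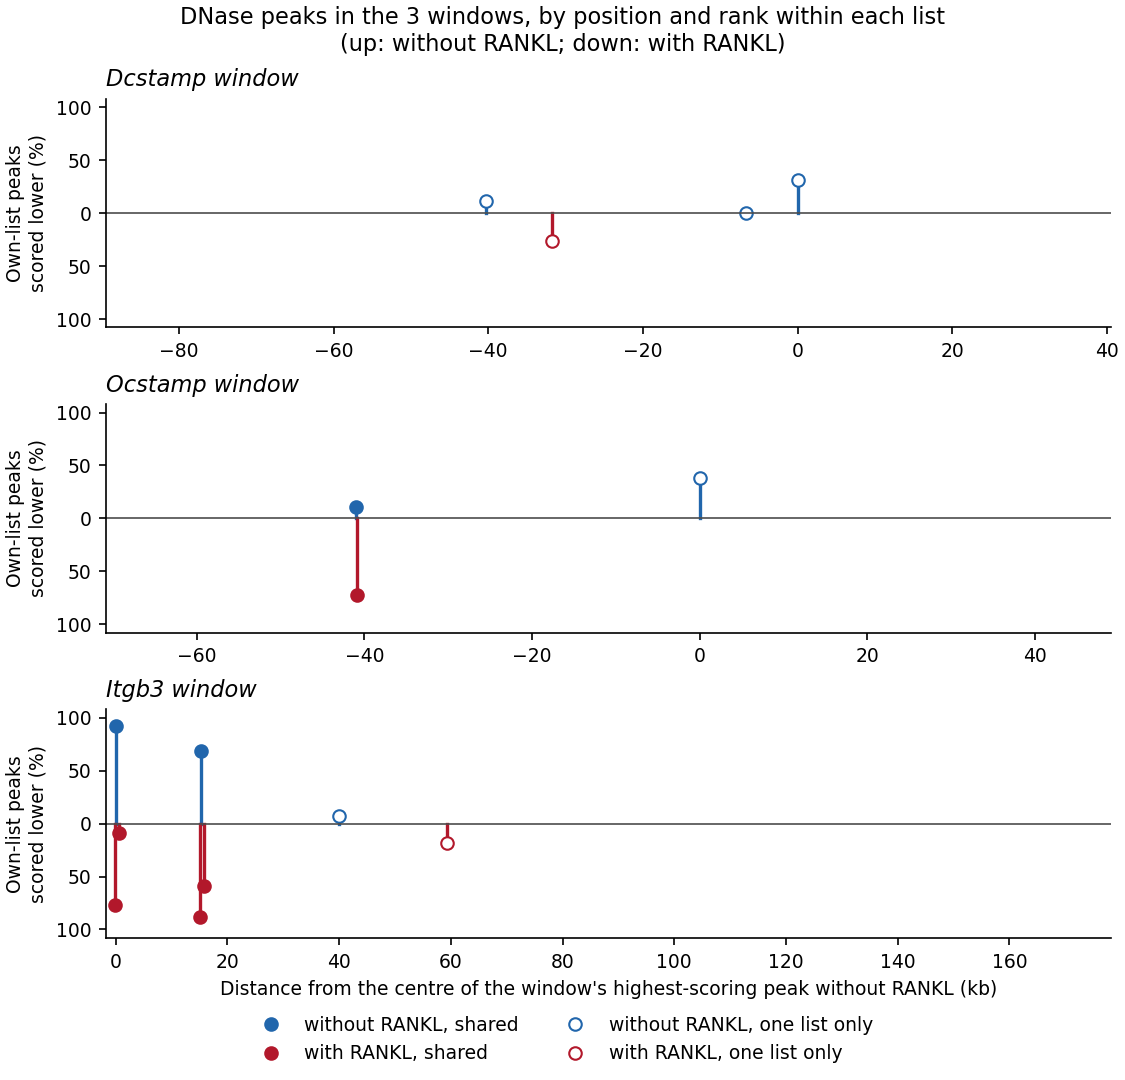
Peaks of the Dcstamp, Ocstamp and Itgb3 windows. The horizontal axis gives the distance in kb from the centre of the highest-scoring peak without RANKL in each window and spans the window. The height is the percentage of the peak's own list with a lower score, upward for peaks without RANKL and downward for peaks with RANKL. Filled points overlap the other list, open points do not. The 4 Dcstamp peaks are all open, and the 6 filled points of the Itgb3 window lie within its first 20 kb.

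Scores are the authors' own value for each peak and were compared only within a list. They started at 50.0 in both lists, with a median of 101 without RANKL and 73.9 with RANKL over all peaks. Positions below are 1-based on mm9, and rank 1 is the highest score of a list. No annotation of mm9 was used here, so whether a peak lies at a promoter, in an intron or between genes was not determined. In the gene order of GRCm38.p6, the nearest protein-coding neighbours are Rims2 and Dpys for Dcstamp, Zfp334 and Slc13a3 for Ocstamp, and Myl4 and Efcab13 for Itgb3. A site of a neighbour and a site of the named gene cannot be told apart here.

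At Dcstamp, whose protein is required for precursors to fuse, the weak sites called without RANKL were not called with RANKL, and 1 other weak site was. The first peak without RANKL, at chr15:39568386-39570036, was 1651 bp wide and scored 58.1, rank 11986 of 13492. The next, at chr15:39601893-39603570, was 1678 bp wide and scored 50.0, tied for the lowest of the list at rank 13491. The highest-scoring of the 3, at chr15:39608252-39610652, was 2401 bp wide, wider than 84.2% of its list, and scored 76.5, rank 9318. All 3 were thus in the lower 50% of the list by score. They lay 7.67, 24.1 and 30.4 kb from the nearest RANKL peak.

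The single RANKL peak of the Dcstamp window, at chr15:39577706-39577825, fell between the first and second of these sites. It was 120 bp wide, narrower than most of its list, in which 4.66% of peaks were narrower still. Its score was 57.4, rank 12182 of 16447, with 25.9% of the RANKL list below it. The nearest peak without RANKL ended 7.67 kb away, and 81.2% of all RANKL-only peaks lay at least that far from the other list. The next RANKL peak was 474 kb away, a distance that 1.40% of RANKL peaks reached or exceeded. Among RANKL peaks this was therefore a lone site, while 3 sites of the other list stood 7.67 to 30.4 kb from it.

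Past the edges of the Dcstamp window the nearest peaks were far off. Without RANKL they lay 575 kb below and 115 kb above it, and with RANKL 416 kb below and 1136 kb above. Small shifts of the window edges would therefore not change its members.

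At Ocstamp, which encodes the other fusion protein, 1 site was called in both states and 1 without RANKL only. The shared site without RANKL, at chr2:165189208-165190526, was 1319 bp wide and scored 57.5, rank 12068 of 13492, so that 10.5% of the list scored lower. The RANKL peak inside it, at chr2:165189809-165190068, was 260 bp wide and scored 111, rank 4590 of 16447, with 72.1% of the list below it. The site thus stood low among the peaks without RANKL and in the upper 50% of the RANKL peaks. Ranks from lists of different lengths, whose calling thresholds are not given, do not measure a change in openness. For scale, the broad peaks of the same score decile (the second from the bottom) included 365 sites with exactly 1 peak in each list. Their RANKL peaks had a median of 47.1% of the list below them (quartiles 28.7 and 65.5%), and the Ocstamp site was above the upper quartile.

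The second Ocstamp peak without RANKL, at chr2:165230176-165231585, was 1410 bp wide and scored 84.2, rank 8378, which was the higher score of the pair. No RANKL peak was called on it, and the nearest lay 40.1 kb away, at the shared site. Of the peaks found only without RANKL, 34.2% were at least that far from the RANKL list. No peak of either list was called in the 48.4 kb from this site to the upper edge of the window. Beyond that edge the nearest peaks were 365 kb away without RANKL and 346 kb away with RANKL. On the lower side a peak found only without RANKL, at chr2:165151070-165153009 with a score of 67.4, lay just outside the window, 6.99 kb from its edge.

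Itgb3 encodes the beta subunit of the osteoclast vitronectin receptor. The strongest sites of the 3 windows were found in its window, and both were called in both states. Both lay toward the lower edge, the farther one starting 16.1 kb into the 180 kb window. Whether they belong to Itgb3 or to a neighbour such as Myl4 was not determined. They are called Itgb3 sites here after the window only. The peak without RANKL at chr11:104410671-104412851 was 2181 bp wide and scored 235, rank 1060 of 13492, in the highest 10% of the list. It began 0.67 kb inside the window, so this site is the member nearest to an edge. It held 2 RANKL peaks, at chr11:104411467-104411928 (score 127, rank 3848 of 16447) and at chr11:104412241-104412436 (score 52.1, rank 15017). The first was 462 bp and the second 196 bp wide, with 312 bp between them. One broad site without RANKL was thus matched by a stronger and a weaker narrow site with RANKL.

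The next Itgb3 site had the same form. Without RANKL it was a peak of 2097 bp at chr11:104426061-104428157, with a score of 136 and rank 4258. With RANKL it held a peak of 643 bp at chr11:104426555-104427197, with a score of 189 and rank 2017, the highest rank of the 7 RANKL members. The other RANKL peak on it was 312 bp wide, at chr11:104427371-104427682, with a score of 83.9 and rank 6831, and 173 bp separated the 2 peaks. In the whole list, 16.7% of the peaks without RANKL held 2 or more RANKL peaks. In the score deciles of these 2 Itgb3 sites, the highest and the seventh from the bottom, the share was 41.1% and 19.5%.

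The 2 Itgb3 sites ranked in opposite order in the lists. The first had 92.1% of its list below it without RANKL, and its better RANKL peak had 76.6%. The second site had 68.4% without RANKL, and its better RANKL peak had 87.7%. Over all sites with exactly 1 peak in each list, the RANKL peak ranked higher the higher the broad peak's decile, from a median of 44.8% of the list below it in decile 1 to 95.2% in decile 10. The quartiles were 89.4 and 97.7% in decile 10, that of the first Itgb3 site, and 43.9 and 81.8% in decile 7, that of the second. The first site was thus below and the second above the quartiles of its decile, although both differ from those sites in holding 2 RANKL peaks. The place of the first depends on the decile edge. It scored 235 in a decile that spans 217 to 3109. In decile 9 the quartiles were 67.18 and 91.55%, and its 76.6% lies between them. The second was also above the quartiles of decile 8, 50.76 and 85.94%. Within the RANKL list, 189 against 127 is the difference in score behind this order, and it has no replicate error.

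**Figure D2:**
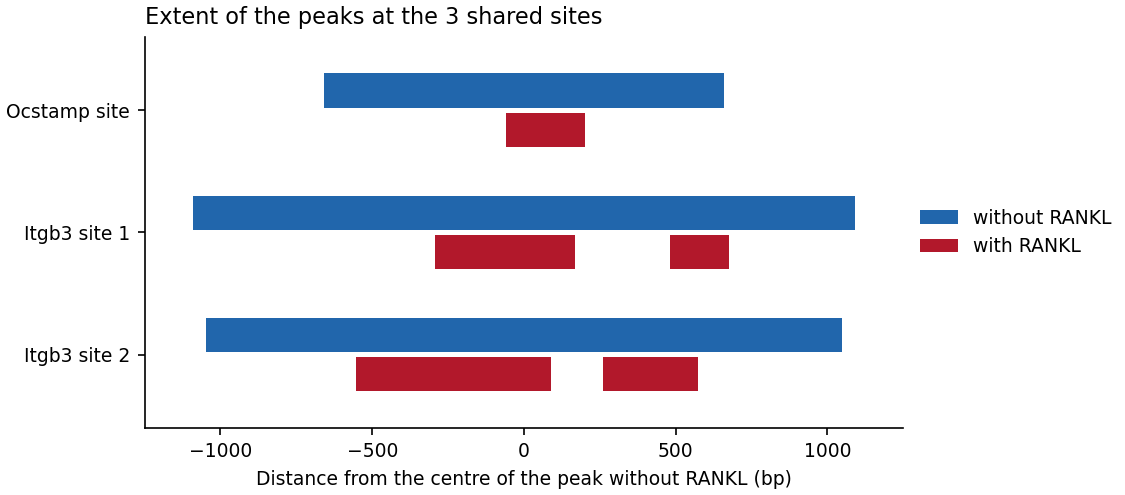
Extent of the peaks at the 3 shared sites, 1 in the Ocstamp window and 2 in the Itgb3 window, in bp from the centre of the peak without RANKL (upper bars). Lower bars are the RANKL peaks. All 5 RANKL peaks lie inside the broad peaks, as 1 peak of 260 bp at Ocstamp and as pairs of 462 and 196 bp and of 643 and 312 bp at Itgb3.

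The last peaks of the Itgb3 window were weak and of one list only. Without RANKL, a peak of 1230 bp at chr11:104451151-104452380 scored 54.9, rank 12522, with 7.18% of the list below it. With RANKL, a peak of 150 bp at chr11:104471007-104471156 scored 54.7, rank 13440, with 18.2% of the list below it. These 2 sites lay 18.6 kb apart and each was the other's nearest neighbour in the opposite list. Among RANKL-only peaks, 64.2% lay at least that far from a peak without RANKL. From there to the upper edge of the window, 118.8 kb, no peak was called in either list, and the next were 397 kb past the edge in both lists. Just below the window, 22.5 kb from its edge, lay a RANKL-only peak at chr11:104387373-104387481 with a score of 56.3.

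Pooled over the 3 windows, the members in the upper 50% of either list by score were all shared. In the whole lists, sharing rose with score. Without RANKL it went from 63.3% in decile 6 to 99.0% in decile 10, and with RANKL from 71.85% to 95.3%. Most peaks of the upper 50% were thus shared in either whole list. The rise with score did not hold within each locus. At Ocstamp without RANKL the shared peak scored 57.5 and the unshared one 84.2, and Dcstamp had no shared peak. The 2 members without RANKL in the upper 50% of their list, both at Itgb3, were shared. The other 6 were in the lower 50%, and 1 of them, at Ocstamp, was shared. In the deciles where the 5 unshared members fell (numbers 1, 2 and 4 from the bottom), 25.5%, 30.9% and 44.4% of all peaks overlapped the RANKL list. With RANKL, the 4 members in the upper 50% were all shared, and of the other 3 only the weak second peak of the first Itgb3 site was. The shared RANKL members lie on the same 3 sites as the shared peaks without RANKL, so they are not separate cases. The RANKL-only peaks at Itgb3 and Dcstamp fell in deciles 2 and 3, where 36.7% and 43.5% of peaks were shared.

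**Figure D3:**
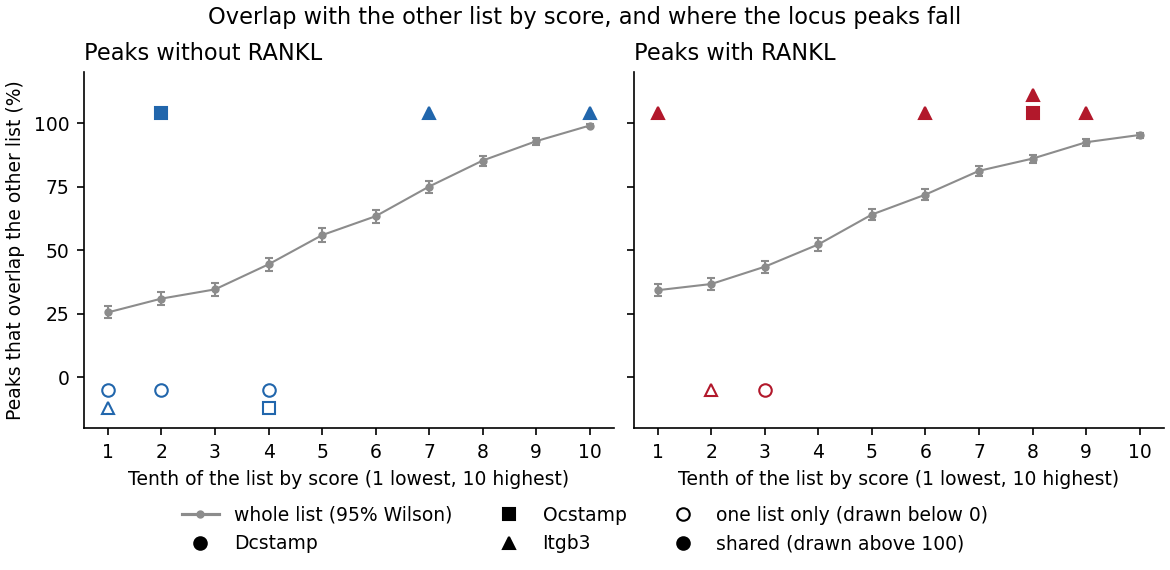
Share of peaks that overlap the other list, by decile of score within each list (grey line, with 95% Wilson intervals). Symbols place the Dcstamp, Ocstamp and Itgb3 peaks in their decile, above 100 where shared and below 0 where not, with no value of their own on the vertical axis. Without RANKL the 5 open symbols lie in deciles 1, 2 and 4, and with RANKL the 2 open symbols lie in deciles 2 and 3.

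At the shared sites the RANKL peaks were the narrower ones, as in the lists. All 5 RANKL peaks at the 3 shared sites lay wholly inside the broad peak, which was 3.26 to 11.1 times as wide as each. At Itgb3 this range sets each peak of a pair by itself against the broad peak. Together the pairs covered 30.2% and 45.5% of their broad peaks, and the Ocstamp peak covered 19.7% of its own. Over the 5931 sites with exactly 1 peak in each list the median ratio was 5.76 (quartiles 4.01 and 8.03). Only Ocstamp had such a site, so only its values compare like with like. Its ratio was 5.07 and the centres were 71.5 bp apart, against a median of 152.5 bp (quartiles 70.0 and 280.5 bp). At Itgb3 the centres of the stronger RANKL peaks lay 63.5 and 233 bp from that of the broad peak, and those of the weaker ones 577.5 and 417.5 bp. All RANKL-only peaks had a median width of 155 bp. The one at Dcstamp, 120 bp wide, was on the narrow side, as 10.8% of RANKL-only peaks were narrower. The one at Itgb3, 150 bp wide, was near the middle, with 45.6% narrower. Since the lists differ in width throughout, a narrowing at these genes and a difference in how the lists were made cannot be told apart.

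The windows also differed in how many peaks they held for their length. Without RANKL, Dcstamp had 23.1 peaks per Mb, and Ocstamp and Itgb3 each had 16.7. With RANKL, the values were 7.69 for Dcstamp, 8.33 for Ocstamp and 27.8 for Itgb3. Over chromosomes 1 to 19 and X there were 5.26 and 6.38 peaks per Mb. Most stretches of this length held no peak. Of windows of 130 kb laid end to end, 9.75% had at least the 3 peaks of Dcstamp without RANKL and 35.3% at least its 1 RANKL peak. For the 120 kb of Ocstamp the shares were 16.4% without RANKL (2 peaks or more) and 33.7% with RANKL (1 or more). For the 180 kb of Itgb3 they were 14.4% without RANKL (3 or more) and 6.80% with RANKL (5 or more). The 5 RANKL peaks of Itgb3 include the pairs 312 and 173 bp apart. With peaks closer than 1 kb merged they were 3 sites, or 16.7 per Mb, the same as Itgb3 without RANKL, and 13.6% of windows of 180 kb held at least 3 such sites. Dcstamp was the densest of the 3 windows without RANKL and Itgb3 with RANKL, also after merging. On so few peaks these densities are counts of 1 to 5.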

How the data were processed

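DNase-seq was done on 2 libraries of RAW264 cells, 1 without and 1 with RANKL. The authors deposited 1 peak list per library, with a position and a score per peak and no header. The build was mm9 and the tools named are Bowtie2 2.0.0 and MACS2, per the submitters' processing notes. How the score is defined, the threshold and any control are not given in the sources. Read depth is unknown.

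Peaks were assigned to a window, classed by an overlap of at least 1 bp, and ranked by score within their own list, in Python 3.11.15 with numpy 2.4.6, pandas 2.3.3, scipy 1.17.1 and matplotlib 3.10.9. A decile is 10% of a list by score. On planted overlaps, 831 of 831 peaks were classed correctly. The windows and alternatives were chosen with earlier results of these data known. Every member peak is named, by a rule that names all peaks of a window holding 12 or fewer per list. Windows of equal length laid end to end, also for merged peaks, and values by decile, were added after the members' values were seen. Promoter, intron and motif results, and other fusion genes, needed an mm9 genome or annotation and were not analysed here.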

Additional observations from a re-analysis of the deposited data

How the results depend on the processing

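Among 36 values from alternative settings, 26 counts or shares were within a factor of 1.5 or inside the counting interval. A reciprocal overlap of 50% left all 8 peaks without RANKL and all 7 RANKL peaks unshared, so that both shares were 0%. No narrow peak here fills 50% of a broad one. The same holds for most of the 5931 sites with exactly 1 peak in each list. There the broad peak was a median of 5.76 times as wide (lower quartile 4.01). Shares of the whole lists under the alternative settings are not given here. With only the upper 50% of each list by score, 2 peaks without RANKL remained, 100% of them shared and 0 unshared, and 1 RANKL peak of 4 was unshared. That peak was the Ocstamp site, whose broad partner scored in the lower 50%. Merging peaks closer than 1 kb left 3 RANKL sites at Itgb3 in place of 5. Widening the windows by 50 kb on each side gave Ocstamp 4 peaks without RANKL and 2 with RANKL, and added no peak at Dcstamp. Allowing a gap of 1 kb between shared peaks, or taking equal numbers of peaks from each list, moved none of the 4 shares and counts past these limits. No paired analysis was possible because each condition had 1 library, and for the same reason no replicate could be left out. Unknown depth limits every statement on a missing peak.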

Other observations

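The nearest shared sites on each side of the Dcstamp window were 4168 kb apart on chromosome 15 (chr15:38945261-43113321). Between them 9 peaks were called without RANKL and 6 with RANKL, and none coincided. Outside the window this follows from the definition of the stretch, and inside the window it was found above. How often stretches of this length occur was not computed. Around Ocstamp, the nearest shared sites outside the window were 566 kb apart, with 4 peaks without RANKL and 3 with RANKL between them. Around Itgb3 they were 682 kb apart, with 3 and 6 peaks. The counts for these 2 loci include the shared peaks inside the window, 2 at Ocstamp and 6 at Itgb3 over both lists. These stretches were chosen after the values of the members were seen, and each condition had 1 library.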
